A study of Homo sapiens with 4 samples.

Results

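The proteasome genes examined here are the 48 rows of the deposited gene count table whose symbols match the proteasome series PSMA to PSMG followed by a number only, out of 28278 rows in all. They comprise the alpha and beta subunits of the core particle, the ATPase and non-ATPase subunits of the regulatory particle, the activators and the inhibitor, and the assembly chaperones. Expression was measured by RNA sequencing of total RNA from A549 cells, an established human lung adenocarcinoma line, in 2 libraries of a stable CBX7-overexpressing line and 2 libraries of a stable control line. Both lines were made by lentiviral infection, the first with a CBX7 construct and the second with a control construct, so the controls are infected cells too. The sources used here do not give the promoter of the constructs, whether either line is a pool or a clone, or whether replicates came from separate cultures. The p-values therefore set the difference between groups against the spread between libraries of a group, which may be technical only.

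The proteasome degrades proteins tagged with ubiquitin. Its core particle is a stack of rings in which catalytic beta subunits lie between outer rings of alpha subunits, and most cells build it with the standard catalytic subunits encoded by PSMB5, PSMB6 and PSMB7. Interferon induces alternative catalytic subunits, encoded by PSMB8, PSMB9 and PSMB10, which replace the standard ones in newly assembled particles to form the immunoproteasome, and it also induces PSME1 and PSME2, which encode the PA28 activator that caps the core particle. The peptides made in this way supply MHC class I molecules.

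Library totals ranged from 88861255 to 90765502 counts with CBX7 overexpression and from 69877585 to 88091494 counts in controls. Levels are given as CPM, the count scaled to a common library size after TMM normalisation. Fold changes, with CBX7 overexpression on top, came from an edgeR quasi-likelihood fit over 17271 tested genes. A gene was called at a Benjamini-Hochberg adjusted p under 0.05 over all tested genes. CBX7 itself averaged 18.1 ± 1.31 CPM in the CBX7 libraries and 8.37 ± 0.521 CPM in the controls (SD, n = 2 per group; log2 fold change 1.11, edgeR adjusted p = 0.000141). The epithelial keratins KRT8 and KRT18 and the A549-typical ALDH1A1 were at 4554 CPM or more in every library, whereas KRT19, EPCAM and the surfactant genes SFTPB and SFTPC were at or under 1.61 CPM in all 4. Of the 10 tested genes among 12 A549 and epithelial markers, 3 were called higher and 1 lower by edgeR. Over all tested genes, 10.5% were called higher and 13.9% lower. AKR1C1 (log2 fold change 1.03, adjusted p = 3.77e-05), AKR1B10 (0.57, 0.00136) and NKX2-1 (1.61, 0.0489) were higher, and KRT7 was lower (-0.29, 0.0342). NKX2-1 was low in both groups, at 1.18 ± 0.130 CPM in the CBX7 libraries and 0.385 ± 0.118 CPM in the controls (SD, n = 2 per group). The 8 leukocyte markers, of interest because leukocytes carry immunoproteasomes, summed to 3.47 and 2.67 CPM in the CBX7 libraries and 1.90 and 1.44 CPM in the controls, with CD3E and MS4A1 at 0 throughout and PTPRC at or under 0.0961 CPM. CD14 made up most of that sum and was called higher, at 2.80 ± 0.403 CPM in the CBX7 libraries and 1.31 ± 0.0772 CPM in the controls (SD, n = 2 per group; log2 fold change 1.10, edgeR adjusted p = 0.0299). The 8 fibroblast and endothelial markers summed to 11.3 and 11.3 CPM in the CBX7 libraries and 6.70 and 8.52 CPM in the controls. Of the 6 tested, CDH5 was called higher, at 2.90 ± 0.300 CPM in the CBX7 libraries and 0.866 ± 0.499 CPM in the controls (SD, n = 2 per group; log2 fold change 1.73, edgeR adjusted p = 0.00868). The part of these markers in the results was not tested.

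The immunoproteasome genes were all lower in the CBX7 libraries than in the controls, while their standard counterparts were not called. All 5 immunoproteasome parts were lower, by log2 fold changes of -1.39 to -4.16, and none of PSMB5, PSMB6 and PSMB7 was called in either direction. Of the 46 members with enough counts to be tested, 11 were lower and 35 were not called, with none higher. Over all tested genes 13.9% were lower (2399 genes), 10.5% were higher (1809 genes) and 24.4% were called in either direction. The 5 immunoproteasome parts were the members both called and lower by a log2 fold change of 1 or more, as were 5.36% of tested genes. The 11 were the 5 immunoproteasome parts, the inhibitor gene PSMF1 and the alpha ring genes PSMA2, PSMA3, PSMA4, PSMA5 and PSMA6. At an unadjusted p under 0.05, edgeR gave 12 members lower and PSMD3 higher. At that threshold it gave 3251 lower and 2903 higher among all 17271 tested genes. DESeq2 called 11 members lower and 0 higher (13.5% and 10.8% of its genes), as did limma-voom (14.3% and 10.7%) and an edgeR fit with the replicate number as a block (14.5% and 12.2%). With library totals in place of TMM, 10 members were lower and PSMD3 was higher, against 11.8% of genes lower (2033) and 14.4% higher (2487). Leaving out CBX7 library 1 gave 9 members lower (9.39% of genes), and leaving out control library 1 gave 10 (10.0%). The count was 11 with CBX7 library 2 left out (9.31%) or control library 2 left out (11.8%). The groups did not overlap in 25 of 46 tested members, 21 of them lower with CBX7 overexpression, whereas they did not overlap in 62.8% of all tested genes, lower with CBX7 overexpression in 31.9%.

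Promoter sequences are shown because 4 of the 5 immunoproteasome parts carry a shared motif near a start site. The stretches run from 150 bases before to 20 bases after the RefSeq start site (GRCh38.p14), read along the gene, and capitals mark matches to the interferon-stimulated response element in the form GAAA, any 2 bases, GAAA, on either strand. TAP1, a peptide transporter gene that is no proteasome gene, is included because it starts next to PSMB9 and is read in the opposite direction. PSMB5 is shown as a standard counterpart, and PSMB4, a structural beta subunit gene, as one with a match.
PSMB9: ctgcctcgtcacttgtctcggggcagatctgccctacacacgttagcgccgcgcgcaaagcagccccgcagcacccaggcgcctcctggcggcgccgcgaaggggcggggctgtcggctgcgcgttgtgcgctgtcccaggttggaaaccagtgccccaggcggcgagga
TAP1: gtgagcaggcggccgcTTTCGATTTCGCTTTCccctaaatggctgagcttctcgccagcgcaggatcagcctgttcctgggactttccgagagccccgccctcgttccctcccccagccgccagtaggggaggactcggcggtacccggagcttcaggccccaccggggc
PSMB8, upstream start: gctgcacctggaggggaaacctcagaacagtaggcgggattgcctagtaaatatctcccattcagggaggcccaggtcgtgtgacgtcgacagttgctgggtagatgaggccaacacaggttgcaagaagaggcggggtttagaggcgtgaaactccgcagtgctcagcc
PSMB8, downstream start: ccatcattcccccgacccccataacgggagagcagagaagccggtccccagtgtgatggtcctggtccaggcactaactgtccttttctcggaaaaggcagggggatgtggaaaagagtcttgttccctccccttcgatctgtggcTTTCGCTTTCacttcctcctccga
PSMB10: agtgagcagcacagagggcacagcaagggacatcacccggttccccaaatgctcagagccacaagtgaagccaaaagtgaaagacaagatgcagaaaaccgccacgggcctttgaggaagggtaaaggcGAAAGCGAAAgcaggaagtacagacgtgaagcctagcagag
PSME2: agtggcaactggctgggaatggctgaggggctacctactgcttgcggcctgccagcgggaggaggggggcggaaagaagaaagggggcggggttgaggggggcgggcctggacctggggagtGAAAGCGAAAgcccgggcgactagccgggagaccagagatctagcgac
PSME1: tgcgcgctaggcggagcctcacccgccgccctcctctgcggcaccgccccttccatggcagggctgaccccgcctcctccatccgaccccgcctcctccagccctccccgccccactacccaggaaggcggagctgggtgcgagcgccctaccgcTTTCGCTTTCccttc
PSMB5: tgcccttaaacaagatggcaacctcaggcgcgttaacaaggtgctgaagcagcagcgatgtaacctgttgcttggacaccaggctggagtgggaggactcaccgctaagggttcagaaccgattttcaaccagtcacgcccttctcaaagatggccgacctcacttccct
PSMB4: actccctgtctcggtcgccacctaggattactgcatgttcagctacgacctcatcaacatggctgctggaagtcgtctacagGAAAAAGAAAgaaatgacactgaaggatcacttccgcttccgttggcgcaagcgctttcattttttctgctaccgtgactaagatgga

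These stretches lie at chr6:32854042-32854211 for PSMB9 (plus strand), chr6:32853685-32853854 for TAP1 (minus strand), chr6:32844660-32844829 and chr6:32844028-32844197 for the upstream and downstream starts of PSMB8 (minus strand), chr16:67936831-67937000 for PSMB10 (minus strand), chr14:24146591-24146760 for PSME2 (minus strand), chr14:24136044-24136213 for PSME1 (plus strand), chr14:23035201-23035370 for PSMB5 (minus strand) and chr1:151399423-151399592 for PSMB4 (plus strand). In RefSeq windows of 300 bases, from 250 before to 50 after the start, the element was present for 4 of the 5 immunoproteasome parts: PSMB8, PSMB10, PSME1 and PSME2. Its first base lay 21 bases before the start in PSMB10, 28 before in PSME2 and 4 before at the downstream start of PSMB8, and the match began at base 6 of the PSME1 transcript. The PSMB9 window held no match, but the TAP1 window held a pair of overlapping ones. These lie between both genes, 354 to 369 bases before the PSMB9 start, and the start sites of PSMB9 and TAP1 are 488 bases apart. Windows were found for 42 of the 48 members, and not for PSMA7, PSMB1, PSMB6, PSMB7, PSMD4 and PSMG3. Of the 36 remaining members with a window, 3 held the element (PSMA4, PSMB4 and PSMG4), as did 3.57% of all 35116 windows in the table. Of these, PSMA4 was called lower, whereas PSMB4 and PSMG4 were not called. The PSMG4 match has the same letters as those of PSMB10 and PSME2 and began 33 bases before a start. PSMG4 had a log2 fold change of 0.02 (edgeR adjusted p = 0.942). A member can have several windows, so its chance of a match is not that of a single window.

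The other motifs, like the response element, were present for members that were called and members that were not. The gamma-activated site, TTCNNNGAA, was present for 8 members, among them PSMB8 and the standard counterpart PSMB5, and in 7.66% of all windows. The antioxidant response element, TGACNNNGC, was present for 15 members, including PSMB9, PSME1 and PSME2, and in 13.3% of windows, and CCAAT was present for 20 members and in 34.6% of windows. A match is a description of letters in these windows and says nothing about a factor binding there.

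PSMB9 encodes the caspase-like subunit of the immunoproteasome and differed most between the groups among the tested members. It had 794 and 712 counts, or 8.48 and 7.89 CPM, in the CBX7 libraries, against 13422 and 9282 counts, or 156 and 136 CPM, in the controls. The groups were far apart, and the level was 17.8-fold lower with CBX7 overexpression (log2 fold change -4.16, SE 0.130, edgeR adjusted p = 1.6e-11). PSMB8, the chymotrypsin-like immunoproteasome subunit, had 20.1 and 22.6 CPM in the CBX7 libraries, against 166 and 161 CPM in the controls. It was 7.68-fold lower (log2 fold change -2.94, SE 0.116, edgeR adjusted p = 2e-10). PSMB10, the trypsin-like subunit, had 17.8 and 20.4 CPM in the CBX7 libraries, against 88.7 and 81.7 CPM in the controls, and was 4.46-fold lower (log2 fold change -2.16, SE 0.121, edgeR adjusted p = 1.11e-08). In all 3 genes each CBX7 library was below each control library, as in 31.9% of all tested genes.

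PSMB8 (chr6:32840717-32844679) and PSMB9 (chr6:32854192-32859851) flank TAP1 (chr6:32845209-32853704) on the minus, plus and minus strands (RefSeq, GRCh38.p14), whereas PSMB10 lies on another chromosome (chr16:67934506-67936850). TAP1, which moves the peptides into the endoplasmic reticulum, had 37.0 and 38.3 CPM in the CBX7 libraries, against 535 and 544 CPM in the controls (log2 fold change -3.84, edgeR adjusted p = 3.7e-12). The long non-coding gene PSMB8-AS1 overlaps PSMB8 and PSMB9 in GENCODE release 29, where the PSMB9 gene body also overlaps TAP1 and 568 bases of PSMB8. It had 0.470 and 0.754 CPM in the CBX7 libraries, against 11.1 and 11.3 CPM in the controls (log2 fold change -4.19, edgeR adjusted p = 7.41e-08). The sources used here do not say whether the libraries were stranded, so reads from overlapping genes on opposite strands cannot be told apart. The same holds for the 888 bases that PSME2 shares with RNF31, a ubiquitin ligase gene with a log2 fold change of -0.99 (edgeR adjusted p = 4.24e-05). PSMB8-AS1 and PSMB9 overlap by 2360 bases on the same strand, where strand would not separate their reads. PSME2 also has 2 named pseudogenes, and how reads shared with them were counted is not stated.

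The PA28 genes lie side by side on chromosome 14 and both were lower in the CBX7 libraries. PSME1 (chr14:24136194-24138962), the alpha chain, had 116 and 121 CPM in the CBX7 libraries, against 317 and 306 CPM in the controls, a 2.62-fold lower level (log2 fold change -1.39, SE 0.0931, edgeR adjusted p = 8.55e-08). PSME2 (chr14:24143365-24146610), the beta chain, had 115 and 126 CPM in the CBX7 libraries, against 452 and 440 CPM in the controls, a 3.70-fold lower level (log2 fold change -1.89, SE 0.0972, edgeR adjusted p = 4.19e-09). Per kilobase of annotated transcript, PSME1 and PSME2 were at 118 ± 3.39 and 85.9 ± 5.94 CPM per kb in the CBX7 libraries, and at 309 ± 7.68 and 318 ± 6.07 CPM per kb in the controls (SD, n = 2 per group). On this scale PSME2 was the lower of the pair with CBX7 overexpression, while both chains were close to each other in controls.

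PSME3, which encodes the related nuclear activator PA28 gamma, was not called. It had 299 and 289 CPM in the CBX7 libraries, against 294 and 297 CPM in the controls (log2 fold change -0.01, SE 0.0905, edgeR adjusted p = 0.973). PSME4, the activator PA200, had 223 and 227 CPM in the CBX7 libraries, against 239 and 244 CPM in the controls (log2 fold change -0.10, SE 0.0894, edgeR adjusted p = 0.475). In bulk libraries such as these, fewer cells that express a gene and less RNA per cell cannot be told apart.

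**Figure D1:**
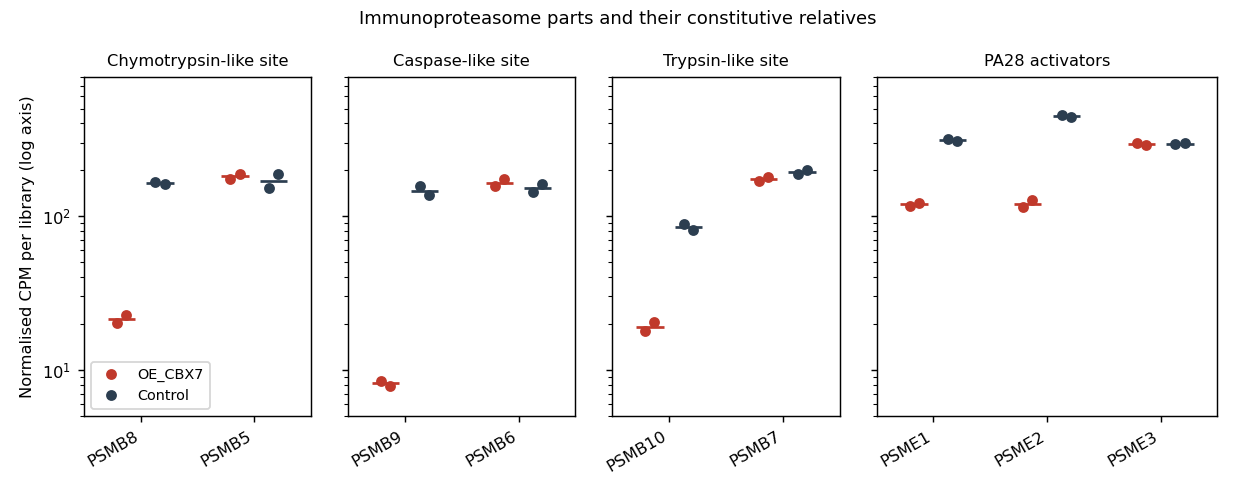
Normalised CPM on a log axis for the immunoproteasome parts and their constitutive relatives, with points for the 2 CBX7 (OE_CBX7) and 2 control libraries and a bar at each mean. PSMB9 sits at 8.48 and 7.89 CPM in the CBX7 libraries and at 156 and 136 CPM in the controls, whereas PSMB6 and PSME3 overlap between groups.

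The standard catalytic subunits were not called. PSMB5, the chymotrypsin-like subunit that PSMB8 replaces, had 175 and 188 CPM in the CBX7 libraries, against 152 and 188 CPM in the controls (log2 fold change 0.10, SE 0.112, edgeR adjusted p = 0.602). PSMB6, the caspase-like counterpart of PSMB9, had 156 and 173 CPM in the CBX7 libraries, against 143 and 160 CPM in the controls (log2 fold change 0.12, SE 0.104, edgeR adjusted p = 0.469). The groups overlapped for both genes. PSMB7, the trypsin-like counterpart of PSMB10, had 168 and 179 CPM in the CBX7 libraries, against 187 and 200 CPM in the controls, with no overlap but a difference that missed the threshold (log2 fold change -0.16, SE 0.0957, edgeR adjusted p = 0.274). For none of the 3 genes was the unadjusted edgeR p under 0.05, and DESeq2 and limma-voom called 0 of them.

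The ratio of each immunoproteasome subunit to its counterpart within a library compares the 2 forms without scaling between libraries. The log2 count ratio of PSMB9 to PSMB6 was -4.20 and -4.46 in the CBX7 libraries, against 0.12 and -0.24 in the controls, a 19.3-fold lower ratio. For PSMB8 to PSMB5 it was -3.12 and -3.06 in the CBX7 libraries, against 0.13 and -0.22 in the controls, an 8.25-fold lower ratio. For PSMB10 to PSMB7 it was -3.24 and -3.13 in the CBX7 libraries, against -1.08 and -1.29 in the controls, a 4.01-fold lower ratio. The 2 groups were separated at all 3 sites. The exact two-sided permutation test gave p = 0.333 for each pair, the smallest value that 2 against 2 libraries allow, and it stayed at 0.333 after adjustment over the 3 pairs.

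Transcript lengths put these ratios on a scale of shares. Taking CPM per kb of the annotated principal transcript, PSMB8 made up 11.9 ± 0.326% of the PSMB8 and PSMB5 transcripts in the CBX7 libraries and 52.7 ± 4.33% in the controls (SD, n = 2 per group). PSMB9 made up 5.16 ± 0.604% of the caspase-like site transcripts in the CBX7 libraries and 51.1 ± 4.37% in the controls. PSMB10 made up 8.11 ± 0.392% of the trypsin-like site transcripts in the CBX7 libraries and 26.2 ± 2.03% in the controls. The control cells thus held about as much transcript of the immuno form as of the standard form at the chymotrypsin-like and caspase-like sites, and less at the trypsin-like site. Both forms summed to 159 ± 8.81 CPM per kb in the CBX7 libraries and 277 ± 16.0 CPM per kb in the controls at the chymotrypsin-like site. At the caspase-like site they summed to 204 ± 13.6 CPM per kb in the CBX7 libraries and 365 ± 3.81 CPM per kb in the controls, and at the trypsin-like site to 193 ± 9.16 CPM per kb in the CBX7 libraries and 267 ± 5.16 CPM per kb in the controls. Transcript shares are not shares of protein or of assembled particles.

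**Figure D2:**
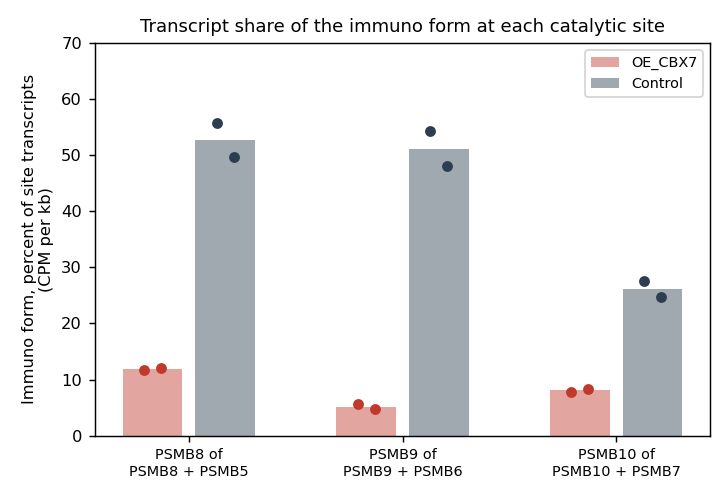
Share of the immunoproteasome form in the transcripts of each catalytic site, in percent of CPM per kb, with bars at the mean and points for the 2 CBX7 (OE_CBX7) and 2 control libraries. The CBX7 libraries lie between 4.73% for PSMB9 and 12.1% for PSMB8, and the controls lie between 24.7% for PSMB10 and 55.8% for PSMB8.

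The alpha ring, whose subunits gate access to the catalytic chamber, moved unevenly. Of its 7 tested genes 5 were lower and 2 were not called, none being higher, beside 13.9% lower and 10.5% higher over all tested genes. The median log2 fold change was -0.46 in the ring, against -0.00015 over all tested genes. PSMA3 had 108 and 126 CPM in the CBX7 libraries, against 187 and 174 CPM in the controls (log2 fold change -0.63, SE 0.106, edgeR adjusted p = 0.000671). PSMA4 had 323 and 372 CPM in the CBX7 libraries, against 548 and 486 CPM in the controls (log2 fold change -0.57, SE 0.105, edgeR adjusted p = 0.00129). PSMA5 had 108 and 119 CPM in the CBX7 libraries, against 170 and 159 CPM in the controls (log2 fold change -0.54, SE 0.102, edgeR adjusted p = 0.0017). The groups did not overlap in any of the 7 tested genes of the ring, nor in 62.8% of all tested genes. PSMA7 was the higher one with CBX7 overexpression, and the others were lower.

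PSMA6 and PSMA2 were lower by less, and their calls were lost in some fits with fewer libraries. PSMA6 had 212 and 255 CPM in the CBX7 libraries, against 332 and 312 CPM in the controls (log2 fold change -0.46, edgeR adjusted p = 0.00549), and was called in 3 of 4 fits with a library left out. It was not called without CBX7 library 1 (log2 fold change -0.33, adjusted p = 0.116). PSMA2 had 162 and 193 CPM in the CBX7 libraries, against 228 and 217 CPM in the controls (log2 fold change -0.33, edgeR adjusted p = 0.0352). Its call was lost with library totals (log2 fold change -0.26, adjusted p = 0.0764). It was also lost on leaving out CBX7 library 1 (-0.20, adjusted p = 0.414), control library 1 (-0.29, adjusted p = 0.134) or control library 2, where the log2 fold change was -0.35 (adjusted p = 0.0686). PSMA1 had 190 and 226 CPM in the CBX7 libraries, against 251 and 228 CPM in the controls, and was not called (log2 fold change -0.20, edgeR adjusted p = 0.191). PSMA7 was at the other end of the ring, with 366 and 394 CPM in the CBX7 libraries, against 308 and 361 CPM in the controls (log2 fold change 0.18, edgeR adjusted p = 0.225). CBX7 library 1 was below CBX7 library 2 for all 7 genes. GENCODE release 29 names 3 pseudogenes of PSMA2, 1 of PSMA3 and 4 of PSMA6, and the sources used here do not say how reads shared with such copies were counted.

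**Figure D3:**
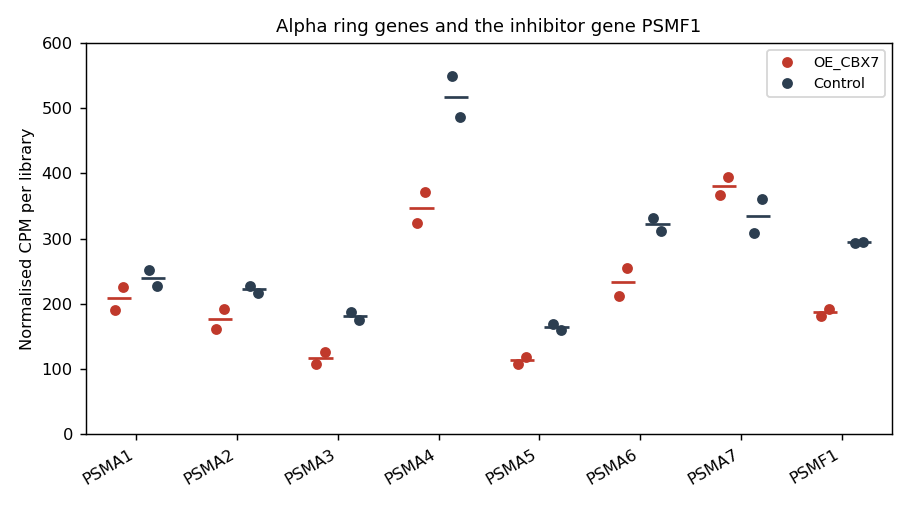
Normalised CPM of the 7 tested alpha ring genes and of the inhibitor gene PSMF1, with points for the 2 CBX7 (OE_CBX7) and 2 control libraries and a bar at each mean. PSMA3, PSMA4, PSMA5, PSMA6, PSMA2 and PSMF1 lie lower in both CBX7 libraries. PSMA1 lies lower and PSMA7 higher in both, without being called.

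PSMF1 encodes PI31, a protein that inhibits the core particle in vitro. It had 182 and 192 CPM in the CBX7 libraries, against 293 and 295 CPM in the controls, and was 1.57-fold lower with CBX7 overexpression (log2 fold change -0.65, SE 0.0905, edgeR adjusted p = 0.000127). Among the 38 tested members that are neither immunoproteasome parts nor their counterparts, PSMF1 had the largest change. These 38 had a median log2 fold change of -0.08, and 6 were lower and 32 not called, with none higher. The share lower was near that over all tested genes, of which 13.9% were lower and 10.5% higher.

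The structural beta subunits, which hold the core together without cutting, were not called. Their log2 fold changes ran from -0.15 for PSMB2 to 0.01 for PSMB4. PSMB4, whose promoter window holds a response element, had 222 and 233 CPM in the CBX7 libraries, against 212 and 242 CPM in the controls (edgeR adjusted p = 0.972). The groups overlapped in PSMB1, PSMB3 and PSMB4.

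The regulatory particle recognises and unfolds tagged proteins, and none of its PSMC and PSMD subunit genes was called. Its 6 ATPase genes had a median log2 fold change of 0.02, with a range from -0.28 for PSMC1 to 0.14 for PSMC4. PSMC1, with 31.4 and 38.8 CPM in the CBX7 libraries, against 39.5 and 45.7 CPM in the controls, had the lowest counts of the 6 (edgeR adjusted p = 0.152) and has 13 named pseudogenes. The 11 non-ATPase genes had a median of -0.0048 and ran from -0.19 for PSMD12 to 0.23 for PSMD3. PSMD3, a lid subunit, had 224 and 211 CPM in the CBX7 libraries, against 177 and 194 CPM in the controls (edgeR adjusted p = 0.095), and was called higher with library totals (adjusted p = 0.0354). PSMD14, the deubiquitinase of the lid, had 174 and 190 CPM in the CBX7 libraries, against 184 and 170 CPM in the controls (edgeR adjusted p = 0.803). PSMD4, a ubiquitin receptor, had 144 and 154 CPM in the CBX7 libraries, against 152 and 162 CPM in the controls (edgeR adjusted p = 0.656). For both subunit groups edgeR, DESeq2 and limma-voom called 0 genes, and PSMD3 was the 1 gene with an unadjusted edgeR p under 0.05.

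Assembly chaperones were not called either. The base chaperones PSMD5, PSMD9 and PSMD10 had log2 fold changes of 0.02 to 0.22. PSMD10, also known as gankyrin, had 97.0 and 103 CPM in the CBX7 libraries, against 86.2 and 85.5 CPM in the controls, without overlap (edgeR adjusted p = 0.141). The core chaperones PSMG1, PSMG2, PSMG3 and PSMG4 ran from -0.33 to 0.02. PSMG2 had 33.7 and 37.7 CPM in the CBX7 libraries, against 48.1 and 41.5 CPM in the controls (edgeR adjusted p = 0.0703), and was called lower at a mean count of 50 or more (0.0386) and without control library 2 (0.0376).

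The 2 tissue-restricted members were too low to be tested. PSMB11, the catalytic subunit of the thymus proteasome, had 3 and 3 counts in the CBX7 libraries, against 8 and 1 in the controls. PSMA8, an alpha subunit of the testis, had 0 and 15 counts in the CBX7 libraries, against 6 and 0 in the controls. The limit that a count of 0 allows, 3 counts, was worth 0.0320 and 0.0333 CPM in the CBX7 libraries, against 0.0348 and 0.0440 CPM in the controls, covering counting error only.

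**Figure D4:**
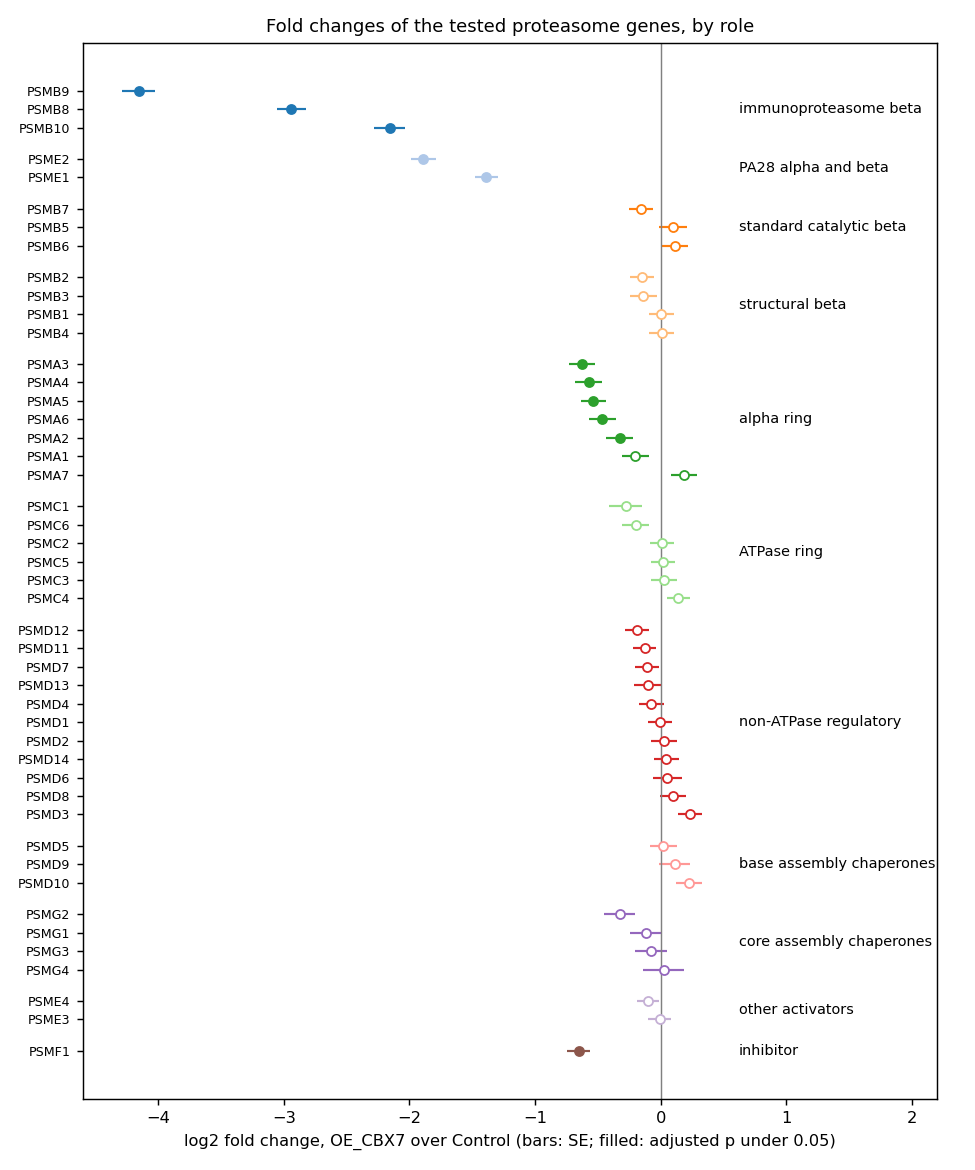
Log2 fold change of CBX7 overexpression over control for the 46 tested members, grouped by role, with SE bars and filled points for an adjusted p under 0.05. The 5 immunoproteasome parts lie between -4.16 and -1.39, 5 alpha ring genes and PSMF1 between -0.65 and -0.33, and all other members between -0.33 and 0.23.

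Summed levels after TMM scaling were lower with CBX7 overexpression, without overlap, for the immunoproteasome parts and for the remaining members. The 5 parts held 277 and 299 CPM in the CBX7 libraries, against 1180 and 1125 CPM in the controls, both CBX7 libraries being lower. The 3 standard counterparts held 499 and 540 CPM in the CBX7 libraries, against 483 and 548 CPM in the controls, with overlap between groups. The 40 remaining members held 6354 and 6807 CPM in the CBX7 libraries, against 7047 and 7246 CPM in the controls, again with both CBX7 libraries lower. Among them, the 8 alpha ring genes held 1469 and 1684 CPM in the CBX7 libraries, against 2024 and 1938 CPM in the controls. The 6 ATPase genes held 927 and 996 CPM in the CBX7 libraries, against 925 and 986 CPM in the controls. On library totals, without TMM, the groups overlap for the remaining members. Per kb of annotated transcript, the highest member in controls was PSMA7 with 336 CPM per kb, followed by PSME2 with 318 and PSMA6 with 313, and PSMC1 was the lowest tested member with 9.58. PSMA7 was also the highest with CBX7 overexpression, at 382 CPM per kb, and PSMB9 was at 10.5. The transcript forms present in these cells are unknown, and long annotated ends lower the values of genes such as PSMC1 and PSMA5.

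**Figure D5:**
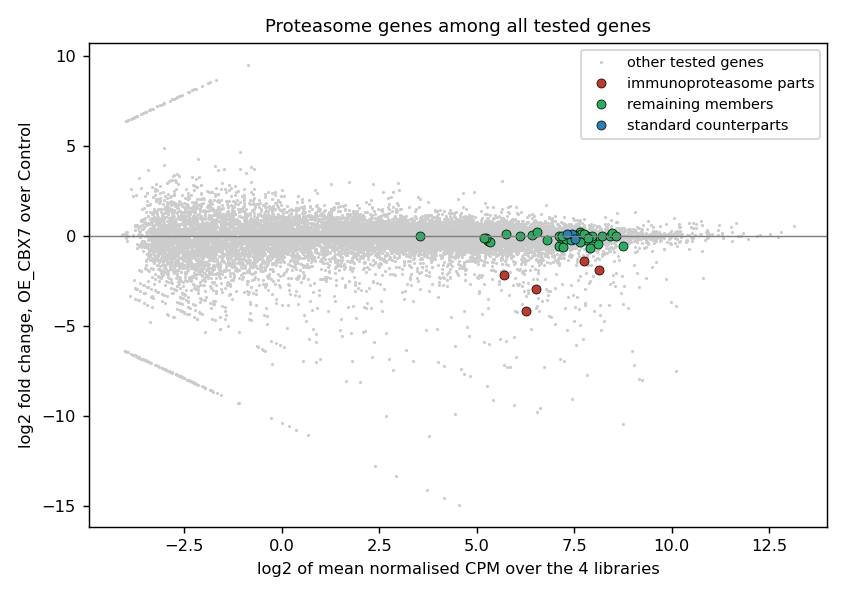
Log2 fold change against log2 mean normalised CPM over the 4 libraries, with 1 point per tested gene and the proteasome genes coloured by class. The 5 immunoproteasome parts lie between -4.16 and -1.39 on the vertical axis, and the standard counterparts lie between -0.16 and 0.12.

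Genes that work with the proteasome were tested alongside. Of 25 proteasome partners, 2 were lower and 23 were not called, with none higher and a median log2 fold change of -0.04. Of all tested genes, 13.9% were lower and 10.5% higher. ECPAS, an adaptor that holds the core and regulatory particles together, had 215 and 203 CPM in the CBX7 libraries, against 286 and 282 CPM in the controls (log2 fold change -0.44, edgeR adjusted p = 0.00282). NGLY1, a deglycosylating enzyme that helps to activate the proteasome gene regulator encoded by NFE2L1, had 28.8 and 29.7 CPM in the CBX7 libraries, against 39.2 and 35.9 CPM in the controls (log2 fold change -0.36, edgeR adjusted p = 0.041), a call lost with library totals (adjusted p = 0.086) and on leaving out CBX7 library 1 (0.262), CBX7 library 2 (0.168) or control library 1 (0.145). AKIRIN2, a nuclear import factor of proteasomes, and TXNL1, a thioredoxin-like protein bound to the regulatory particle, had log2 fold changes of -0.42 and -0.29 and were not called (edgeR adjusted p of 0.0504 and 0.057), though each was called under 4 of 11 alternatives. At an unadjusted p under 0.05, edgeR gave 4 partners lower and 1 higher, beside 3251 lower and 2903 higher among all 17271 tested genes. DESeq2 and limma-voom called 3 partners lower and 0 higher each. Over all their genes, DESeq2 called 13.5% lower and limma-voom 14.3%.

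Among 6 genes of ubiquitin and its activation, 2 were lower and 4 were not called, with none higher, beside 13.9% lower over all tested genes. UBA6, an alternative ubiquitin-activating enzyme, had 65.6 and 60.2 CPM in the CBX7 libraries, against 102 and 84.3 CPM in the controls (log2 fold change -0.56, edgeR adjusted p = 0.00365). UBB, a ubiquitin gene, had 652 and 742 CPM in the CBX7 libraries, against 617 and 602 CPM in the controls, and was not called (log2 fold change 0.19, edgeR adjusted p = 0.18).

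The class I peptide pathway downstream of the immunoproteasome and the interferon transcription factors upstream of it were lower as well. Of 18 tested genes for class I peptide supply, 13 were lower and 5 were not called, with none higher and a median log2 fold change of -2.15. For this list and the next, the share over all tested genes was 13.9% lower and 10.5% higher. HLA-B had 43.2 and 45.4 CPM in the CBX7 libraries, against 688 and 571 CPM in the controls (edgeR adjusted p = 1.41e-11), a level that is uncertain because HLA genes share reads. NLRC5, the transactivator of class I genes, had 11.7 and 11.5 CPM in the CBX7 libraries, against 174 and 175 CPM in the controls (edgeR adjusted p = 9.49e-12). All 7 interferon transcription factors were lower, with a median log2 fold change of -3.57. Of these, IRF8 was barely expressed, with 0.342 and 0.166 CPM in the CBX7 libraries, against 0.836 and 1.76 CPM in the controls (edgeR adjusted p = 0.0164). IRF1, known to act on the PSMB9 and TAP1 promoter, had 22.4 and 22.0 CPM in the CBX7 libraries, against 346 and 405 CPM in the controls (log2 fold change -4.08, edgeR adjusted p = 5.92e-12). Uninfected A549 cells were not analysed here, so a loss in the CBX7 line and a gain in the control line cannot be told apart.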

How the data were processed

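RNA sequencing counts of 2 CBX7-overexpressing and 2 control libraries of A549 cells were analysed, grouped by their titles. The deposited table gives an estimated count per gene and library. Genome build hg38 and the tools StringTie 2.2.1, HISAT2 2.2.1 and DESeq2 are named, with no role, per the submitters' processing notes. The annotation the authors used is not stated there. All values were whole numbers, so rounding changed none.

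After filterByExpr and TMM scaling, genes were tested with edgeR 4.0.16 (quasi-likelihood, robust, group as the only term) in R 4.3.3, adjusted by Benjamini-Hochberg over 17271 genes. SE values were derived from the fold change and its F statistic. The fits were tested on simulated counts. Transcript lengths came from GENCODE release 29 (GRCh38), taking the longest basic coding transcript of the best principal rank, and promoter windows and positions from RefSeq (GRCh38.p14). Alternatives were library totals, RLE factors, other count filters, DESeq2 1.42.0, limma-voom (limma 3.58.1), a replicate block and leaving out each library.

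All members may be named. Full values go to the immunoproteasome parts, their counterparts, PSME3, PSME4, PSMF1 and up to 3 called genes of each other role, and elsewhere to the 4 genes of a list with the smallest p, not all of which are printed. PSMB4, PSMC1, PSMD3, PSMD4, PSMD10, PSMD14, PSMG2, PSMG4, RNF31 and the marker genes were singled out after their values were seen. The members and lists were chosen with earlier results of these data known. Some items of these lists are not reported here.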

Additional observations from a re-analysis of the deposited data

How the results depend on the processing

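The 5 immunoproteasome parts were called lower, and the 3 standard counterparts were not called, under all 11 alternatives. With 1 library left out, members called lower numbered 9 to 11. Genes called higher over all tested genes numbered 1021 on leaving out CBX7 library 1, 1121 on leaving out CBX7 library 2 and up to 1790 otherwise. Library totals gave 1 member higher (PSMD3, also the 1 among remaining members), and among proteasome partners 1 higher (SEM1) and 1 lower. Partners called lower numbered 4 at a mean count of 50 or more and 4 with the replicate block, and 1 to 3 with a library left out (1 without control library 1 or either CBX7 library). Interferon transcription factors called lower numbered 6 to 7 with a library left out (6 without either control library or CBX7 library 2). Over all genes tested in each fit, 2586 were lower at a mean count of 50 or more and 2503 (14.5%) with the replicate block. The cause of the changes between alternatives was not tested. With a library left out, the change in log2 ratio ran from -3.22 to -2.87 for PSMB8 to PSMB5, from -4.45 to -4.09 for PSMB9 to PSMB6 and from -2.11 to -1.90 for PSMB10 to PSMB7.

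Equal replicate numbers are not stated to pair libraries, and deviations of same-numbered libraries from their group means correlated at 0.0281 across genes. The replicate block left 11 members lower and 0 higher, and gave 2100 higher and 2503 lower genes over all tested. Within numbers 1 and 2, the log2 ratio changed by -3.25 and -2.84 for PSMB8 to PSMB5 and by -2.17 and -1.84 for PSMB10 to PSMB7. Fits that leave a group with 1 library assume that it varies like the other group. With 2 libraries per group, small changes of the uncalled members cannot be told from 0.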

Other observations

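Transcripts antisense to members fall outside the member rule. The antisense transcript PSMA3-AS1 had 24.4 and 24.7 CPM in the CBX7 libraries, against 24.4 and 24.6 CPM in the controls (edgeR adjusted p = 0.99), while its sense partner PSMA3 was lower. PSMG3-AS1 had 12.9 and 11.0 CPM in the CBX7 libraries, against 9.45 and 7.18 CPM in the controls, with no overlap but no call (edgeR adjusted p = 0.0603), though it was called under 5 of 11 alternatives.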
